A study of Bos taurus with 37 samples.

Results

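The aminoacyl-tRNA synthetases are the enzymes that load each amino acid onto its tRNA, and every codon read by a ribosome depends on that step. The cytosol and the mitochondrion are served by largely separate sets, all nuclear-encoded. Most differ in name by a final 2, while KARS and GARS each encode the enzyme of both compartments. Several of the cytosolic enzymes sit together in a multi-synthetase complex held by the scaffold proteins AIMP1, AIMP2 and EEF1E1, and many cytosolic synthetase genes are known targets of ATF4, the transcription factor of the amino acid response. A preimplantation embryo starts with enzymes and transcripts laid down in the oocyte and makes its own after genome activation.

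The members were chosen by gene symbol alone: one letter followed by ARS, with or without a final 2, together with EPRS, FARSA and FARSB. They took 37 of the 22628 rows of the FPKM table (fragments mapped to a gene, scaled to its exon length and to the size of the library), 21 for cytosolic and 16 for mitochondrial enzymes, under 36 symbols. FARSB had 2 rows, of which the second did not rise above 0.648 FPKM in any blastocyst and was too low to test. The other 36 passed the filter on low values, a mean over 0.1 FPKM, in every comparison. No row carried the symbol of the mitochondrial valine enzyme, which was not analysed here.

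Single bovine blastocysts were profiled by RNA-seq after amplification of their poly-A RNA by pico-profiling, a method for minute samples. In vitro fertilization gave 6 male and 6 female blastocysts (IVF-BLs). Somatic-cell nuclear transfer of adult ear skin fibroblasts into enucleated oocytes gave 6 male and 6 female blastocysts (SCNT-BLs), taken 6 to 8 days after transfer with 60 to 80 blastomeres. Sham nuclear transfer gave 6 male and 5 female blastocysts (sham NT-BLs), for which fertilized zygotes were taken 18 to 22 hours after IVF. Each lost its polar body and some ooplasm, kept both pronuclei, and was activated with ionomycin and DMAP. The male and the female donor fibroblasts gave 1 library each. No strain or genetic change was stated for any group. Each blastocyst is 1 sample, and whether the embryos of a group came from separate cultures was not stated, so the p-values measure the spread between embryos. The sexes were sequenced on separate flow cells. Sex and flow cell therefore cannot be told apart, and the male and female sets were kept separate. Among SCNT-BLs, sex cannot be told apart from the donor cells either.

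All blastocyst groups held trophectoderm and inner cell mass transcripts, and the fibroblast marker list (8 genes) summed to at most 36.1 FPKM in a blastocyst against 10854 and 6136 in the donor cells. Pairs of blastocysts of a group correlated at 0.830 to 0.936 across genes, so none was counted as a repeat of another. Summed FPKM over all rows ran from 414105 to 601000 in blastocysts. They were higher in sham NT-BLs (mean 541496 in males, 538773 in females) than in IVF-BLs (498958 and 453837). Sham counts and class sums of the members are therefore also given with each library rescaled to the same sum. Members whose sham calls this ended are named. The summed level of the 4 inner cell mass genes was lower in sham NT-BLs than in IVF-BLs, at 16.7 to 66.9 against 58.6 to 92.1 FPKM in males and 35.1 to 67.4 against 69.7 to 171 FPKM in females. The sums of the trophectoderm genes overlapped between these groups. Their medians were 5244 in sham NT-BLs against 5038 FPKM in IVF-BLs in males, and 3886 against 6717 in females. In the study's read statistics, male sham libraries other than replicate 2 had a much smaller mapped share than the other male libraries, and the female sham libraries did not differ in this way. None of these points was tested for its part in the results. In whole blastocysts, fewer cells of a type and less RNA per cell cannot be told apart.

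In IVF-BLs, the lysine enzyme KARS was the most abundant member by a wide margin. Its level over the 12 IVF-BLs was 537 ± 104 FPKM (SD), and it alone made up 32.6% ± 1.86 (SD, n = 6) of the summed cytosolic FPKM in males and 27.1% ± 2.61 (n = 6) in females. The glutamine enzyme QARS followed at 204 ± 41.5 FPKM. The asparagine enzyme NARS stood at 171 ± 60.5 FPKM and the threonine enzyme TARS at 163 ± 48.2, so the order of these 3 lay within their spread. At the lower end, HARS (14.9 ± 3.43), FARSA (12.3 ± 6.48) and YARS (8.10 ± 3.82) were neighbours whose ranges overlapped. The phenylalanine enzyme is built of FARSA and FARSB subunits, and FARSB stood at 63.6 ± 18.9 FPKM, above FARSA in all 12 IVF-BLs.

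KARS and GARS, which encode the enzyme of both compartments, were counted in full as cytosolic, so the mitochondrial class leaves them out. The enzymes of the mitochondrial class were far less abundant. Their highest members were SARS2 (38.1 ± 6.03 FPKM), FARS2 (26.2 ± 8.67) and IARS2 (25.6 ± 4.84), which overlapped in range. Their lowest were AARS2 (2.84 ± 0.897), NARS2 (1.35 ± 0.666) and EARS2 (0.954 ± 0.811), and EARS2 was listed at 0 in 1 of the 12. The summed cytosolic level was 8.18 ± 1.52 (SD, n = 6) times the mitochondrial one in male and 9.33 ± 1.81 (n = 6) times in female IVF-BLs. Members varied widely between embryos of a group. The median coefficient of variation over the 20 cytosolic members was 26.2% in male and female IVF-BLs alike. Over the 16 mitochondrial members it was 37.1% in males and 40.0% in females.

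Summed over the class, the mitochondrial synthetases separated sham NT-BLs from IVF-BLs in both sexes, while the cytosolic sums overlapped. The mitochondrial sum ran from 194 to 254 FPKM in male IVF-BLs (median 220), from 201 to 256 in male SCNT-BLs (median 234) and from 306 to 538 in male sham NT-BLs (median 368). In females it ran from 167 to 220 in IVF-BLs (median 194) and from 149 to 269 in SCNT-BLs (median 236). The 5 female sham NT-BLs lay between 255 and 336 (median 324). All sham NT-BLs thus lay above all IVF-BLs of their sex in this sum. The median over the mitochondrial members overlapped in both sexes. In males it was 7.38 to 10.4 FPKM in IVF-BLs against 8.76 to 16.1 in sham NT-BLs. In females it was 7.66 to 10.1 FPKM against 5.61 to 15.0. The cytosolic sum was 1807 ± 335 FPKM (SD, n = 6) in male IVF-BLs, 1635 ± 343 (n = 6) in SCNT-BLs and 2150 ± 280 (n = 6) in sham NT-BLs. In females the means were 1785 ± 208 (n = 6), 1626 ± 223 (n = 6) and 1980 ± 154 (n = 5). With every library rescaled to the same summed FPKM, the female cytosolic mean was lower in sham NT-BLs than in IVF-BLs (3683 against 3958 parts of a summed FPKM set to 1e+06), so its direction depends on the scaling. The mitochondrial means stayed higher in sham NT-BLs, at 700 against 444 parts in males and 569 against 427 in females. The female ranges then came close, with 503 parts in the lowest sham NT-BL and 500 in the highest IVF-BL.

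**Figure D1:**
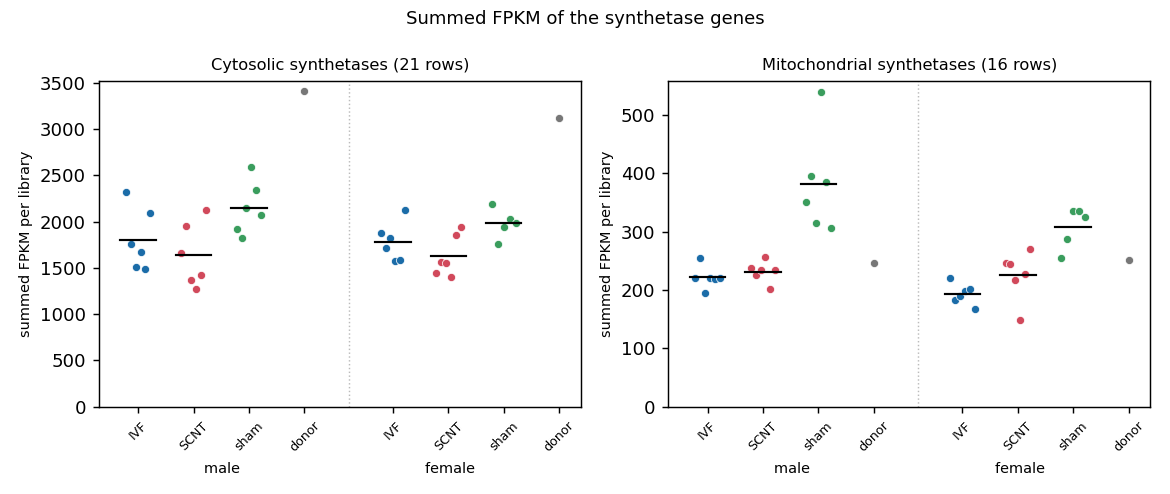
Summed FPKM of the cytosolic (left) and mitochondrial (right) synthetase rows in every library, by group, with a line at each group mean. All sham NT-BLs lie above all IVF-BLs of their sex on the right, where the lowest are 306 in males and 255 in females, while on the left the groups overlap and the donor cells, at 3414 and 3118, lie above every blastocyst.

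A few genes had the largest parts in the mitochondrial difference. In males, SARS2 added 60.9 FPKM to the mean sum of sham NT-BLs over IVF-BLs, IARS2 31.4, WARS2 26.0 and HARS2 25.8, while FARS2 took 22.8 away. In females, WARS2 added 42.7 FPKM and SARS2 34.9, and FARS2 took 20.7 away. On the cytosolic side, TARS added 171 FPKM in males and 107 in females and EPRS 167 and 126. KARS, counted here as cytosolic though it encodes both forms, was lower by 256 FPKM in males and by 155 in females. The share of KARS in the cytosolic sum was 15.8% ± 4.56 (SD, n = 6) in male and 16.8% ± 1.80 (n = 5) in female sham NT-BLs, and the ranges did not meet those of IVF-BLs in either sex.

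Sham NT-BLs were compared with IVF-BLs to see what manipulation without nuclear replacement does to these transcripts. In males, 14 of 36 members (38.9%) passed limma's adjusted threshold of 0.05, 11 higher and 3 lower in sham NT-BLs, where 12.1% of all 14902 genes tested passed (6.13% higher, 5.96% lower). In females 8 of 36 (22.2%) passed, 5 higher and 3 lower, against 13.5% of 15259 genes (7.03% higher, 6.47% lower). The median log2 fold change over the members was 0.47 in males and 0.27 in females, beside -0.02 and -0.09 over all genes. After rescaling to equal sums, 9 were higher and 3 lower in males, and 3 higher and 5 lower in females, where the median of all genes moved to -0.24 and that of the members to 0.03. After centring each library on its median, 12 were higher and 3 lower in males and 10 higher and 2 lower in females. The female split thus depends on the scaling. Without male sham replicate 4 the male count was 8 of 36, and it was 12 without male sham replicate 2. The female count was 5 without female IVF replicate 3 and 5 without female sham replicate 5.

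The enzyme for proline and glutamate, EPRS, one of the cytosolic complex, was higher in sham NT-BLs of both sexes. It ran from 74.4 to 126 FPKM in male IVF-BLs (median 110), and in male sham NT-BLs from 160 to 422 (median 249), a log2 fold change of 1.34 ± 0.23 (SE; limma adjusted p = 0.00137). Female IVF-BLs ran from 68.9 to 116 FPKM (median 108) and the 5 female sham NT-BLs stood at 207, 208, 255, 239 and 236, a change of 1.17 ± 0.19 (adjusted p = 0.000894). The groups did not overlap in either sex. EPRS kept its call under every alternative tried and without each library in turn, in both sexes. Male SCNT-BLs, at 58.2 to 111 FPKM (median 95.5), and female SCNT-BLs, at 81.9 to 121 (median 105), lay within or near the IVF range.

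FARS2, the mitochondrial phenylalanine enzyme, went the other way and by more than any other member. Male IVF-BLs held 17.1 to 40.1 FPKM (median 23.7), and male sham NT-BLs 1.0 to 7.08 (median 3.76). The change was -2.57 ± 0.34 on the log2 scale (adjusted p = 0.000176), a ratio of the means of 6.95. In females, IVF-BLs held 14.7 to 41.3 FPKM (median 25.4) and sham NT-BLs 1.80, 7.71, 9.49, 2.65 and 3.06, a change of -2.30 ± 0.37 (adjusted p = 0.000823) and a ratio of 5.20. No sham NT-BL reached the lowest IVF-BL of its sex, and the call held under every alternative and without each library. FARSB, a subunit of the cytosolic phenylalanine enzyme, fell in males, from 53.3 to 74.0 FPKM (median 61.2) in IVF-BLs to 18.6 to 49.3 (median 23.4) in sham NT-BLs (-1.20 ± 0.24, adjusted p = 0.00381), again without overlap. In females it was 33.0 to 98.8 FPKM (median 57.8) against 30.3 to 49.3 (median 33.1), which did not pass. The other subunit, FARSA, passed in neither sex.

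SARS2, the mitochondrial serine enzyme, was the mitochondrial member called higher in both sexes. It ran from 32.2 to 46.0 FPKM (median 39.2) in male IVF-BLs and, in male sham NT-BLs, from 67.7 to 153 (median 101) (1.29 ± 0.21, adjusted p = 0.000953). Female IVF-BLs ran from 27.0 to 46.9 (median 37.1), and the sham NT-BLs stood at 67.6, 64.6, 77.1, 83.1 and 68.0 (0.95 ± 0.19, adjusted p = 0.00432). The groups did not overlap in either sex, and the call held under every alternative. Its cytosolic counterpart SARS rose in males, from 47.4 to 90.3 FPKM (median 52.3) to 93.5 to 194 (median 167), without overlap (1.25 ± 0.24, adjusted p = 0.00287). In females SARS was 59.1 to 108 FPKM (median 79.8) against 78.2 to 140 (median 101) and did not pass. The leucine enzyme LARS, also of the complex, was the remaining member called in both sexes. It was 21 to 37.7 FPKM (median 27.5) in male IVF-BLs and 24.1 to 77.3 (median 56.7) in male sham NT-BLs (0.87 ± 0.26, adjusted p = 0.0354). In females 20.1 to 31.1 FPKM (median 26.8) stood against 61.8, 37.0, 34.7, 42.9 and 61.6 (0.81 ± 0.22, adjusted p = 0.0254). LARS lost its call in both sexes after rescaling (adjusted p = 0.0577 and 0.128), and without 9 of the 12 male or 3 of the 11 female libraries in turn.

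**Figure D2:**
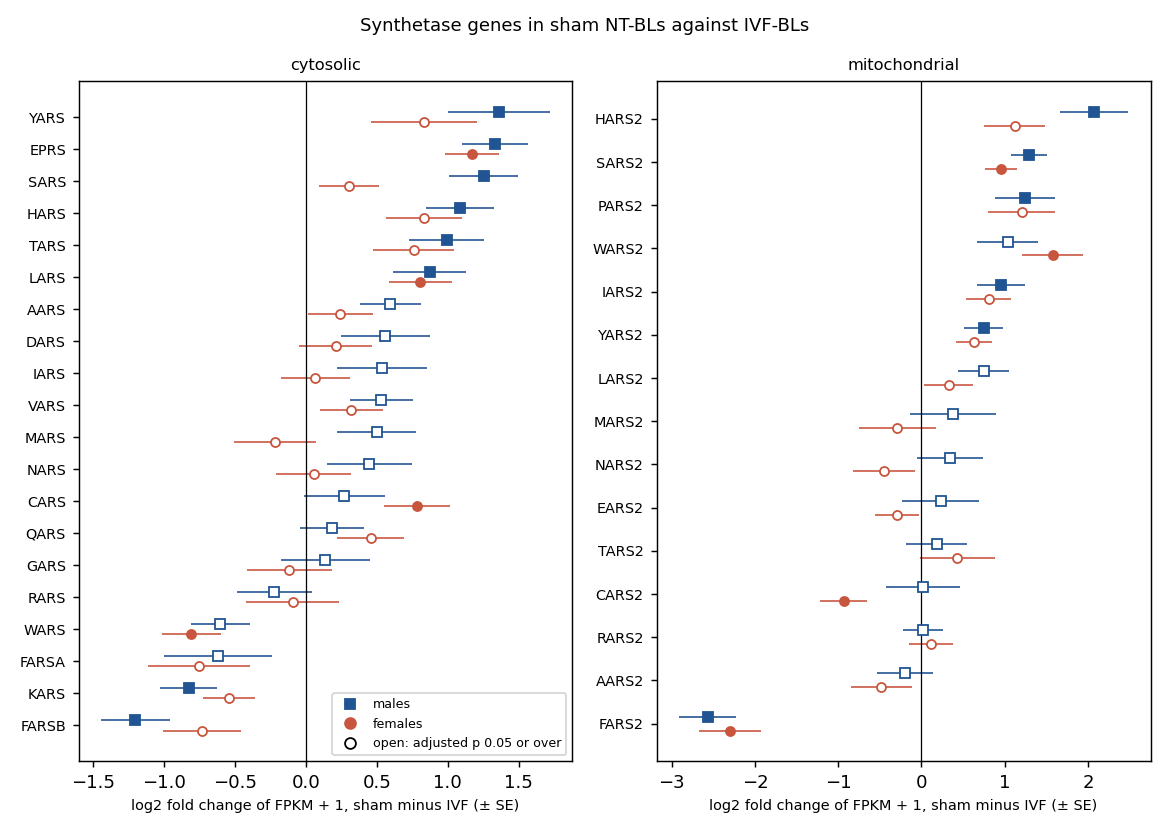
Log2 fold change of FPKM + 1 with its SE for the tested synthetase genes but 1 mitochondrial one, sham NT-BLs minus IVF-BLs, in males (squares) and females (circles), cytosolic on the left and mitochondrial on the right, ordered by the male value. Filled symbols passed the adjusted threshold of 0.05. FARS2 lies lowest, at -2.57 and -2.30, and EPRS, LARS and SARS2 are filled to the right of 0 in both sexes.

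The 4 members called in the same direction in both sexes (EPRS, LARS, SARS2 and FARS2) were 28.6% of the male and 50% of the female calls. Over all genes those shares were 44.3% and 38.6%. All 14 members called in males had the same sign in females, and 30 of the 36 members had the same sign in both. The agreement in sign over all genes was not worked out, so these counts cannot be called particular to the members. The male and female comparisons share no sample. The difference between the sexes in the sham effect was not significant for any member by limma (0 of 36, where 1.22% of all genes passed), and 2 of 36 had an unadjusted p under 0.05, as did 12.2% of all genes.

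The histidine enzymes, encoded by neighbouring genes that are close relatives in sequence, moved together in males. Mitochondrial HARS2 rose from 1.68 to 11.2 FPKM (median 7.69) in male IVF-BLs to 12.8 to 53.1 (median 36.2) in male sham NT-BLs, a change of 2.07 ± 0.41 (adjusted p = 0.00314), the highest gain of any member. Cytosolic HARS rose from 10.1 to 17.4 FPKM (median 13.7) to 22.1 to 48.1 (median 27.8; 1.09 ± 0.24, adjusted p = 0.00707). Neither pair of groups overlapped, and both calls held under every alternative. Whether reads were shared between the HARS rows was not tested. In females HARS2 was 2.88 to 9.06 FPKM (median 5.69) against 7.54, 18.7, 15.2, 8.24 and 17.0. HARS was 11.8 to 22.2 (median 15.5) against 30.9, 37.4, 36.1, 15.3 and 30.4, and neither passed (adjusted p = 0.0513 for HARS).

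KARS fell in male sham NT-BLs. It was 464 to 717 FPKM (median 579) in male IVF-BLs and 248 to 455 (median 330) in male sham NT-BLs, so that the most abundant member no longer overlapped between the groups (-0.83 ± 0.20, adjusted p = 0.0132). The female sham NT-BLs were tightly grouped at 318, 344, 327, 336 and 322 FPKM, below all female IVF-BLs (401 to 566, median 487), and the change of -0.54 ± 0.19 missed the threshold (adjusted p = 0.0665).

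Further members were called in one sex, and the difference between the sexes did not pass for any of them. In males, TARS rose from 121 to 258 FPKM (median 143) to 183 to 542 (median 300; 0.99 ± 0.26, adjusted p = 0.0208). The tyrosine enzyme YARS rose from 2.48 to 10.3 (median 7.39) to 10.7 to 31.7 (median 18.6; 1.36 ± 0.36, adjusted p = 0.0196), and these groups did not overlap. Among mitochondrial enzymes, PARS2, for proline, rose from 4.44 to 16.6 FPKM (median 8.53) to 13.3 to 47.6 (median 19.3; 1.25 ± 0.36, adjusted p = 0.0305). IARS2, for isoleucine, rose from 24.1 to 31.8 (median 26.2) to 26.0 to 92.9 (median 60.8; 0.95 ± 0.29, adjusted p = 0.0386). YARS2 rose from 10.4 to 21.8 (median 12.8) to 16.1 to 29.6 (median 23.9; 0.75 ± 0.23, adjusted p = 0.0480). TARS, YARS, PARS2, IARS2 and YARS2 each lost the call without at least 1 library, male sham replicate 4 among them in every case, with adjusted p-values up to 0.101. YARS2 also lost its call after rescaling (adjusted p = 0.0978).

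In females the tryptophan enzymes parted. Mitochondrial WARS2 rose from 8.42 to 32.9 FPKM (median 17.2) in IVF-BLs to 33.0, 38.5, 105, 94.6 and 36.8 in sham NT-BLs (1.58 ± 0.37, adjusted p = 0.00959). Cytosolic WARS, known as an interferon-inducible gene, fell from 75.4 to 122 FPKM (median 89.0) to 69.8, 39.2, 52.7, 56.5 and 52.0 (-0.81 ± 0.21, adjusted p = 0.0173). Neither pair of groups overlapped, though those of WARS2 nearly met, at 33.0 against 32.9 FPKM. WARS missed the threshold without female sham replicate 2 (adjusted p = 0.0527). With a replicate block both genes missed it (adjusted p = 0.0660 for WARS2 and 0.0955 for WARS). In males WARS2 was 9.41 to 39.5 FPKM (median 22.7) against 19.2 to 96.5 (median 42.3) and WARS 62.9 to 97.3 (median 83.1) against 36.4 to 76.6 (median 48.6), with adjusted p-values of 0.0804 and 0.0692. The cysteine enzymes parted as well in females. CARS rose from 39.8 to 75.0 FPKM (median 46.6) to 119, 57.2, 77.9, 82.7 and 104 (0.78 ± 0.23, adjusted p = 0.0352). CARS2 fell from 8.21 to 12.2 (median 10.004) to 3.06, 7.52, 4.10, 6.12 and 4.41 (-0.94 ± 0.28, adjusted p = 0.0377), without overlap. Rescaling ended the call of CARS (adjusted p = 0.166) and kept that of CARS2 (adjusted p = 0.0112), which median centring ended (adjusted p = 0.0773). Both were lost without several single libraries (adjusted p up to 0.0845).

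**Figure D3:**
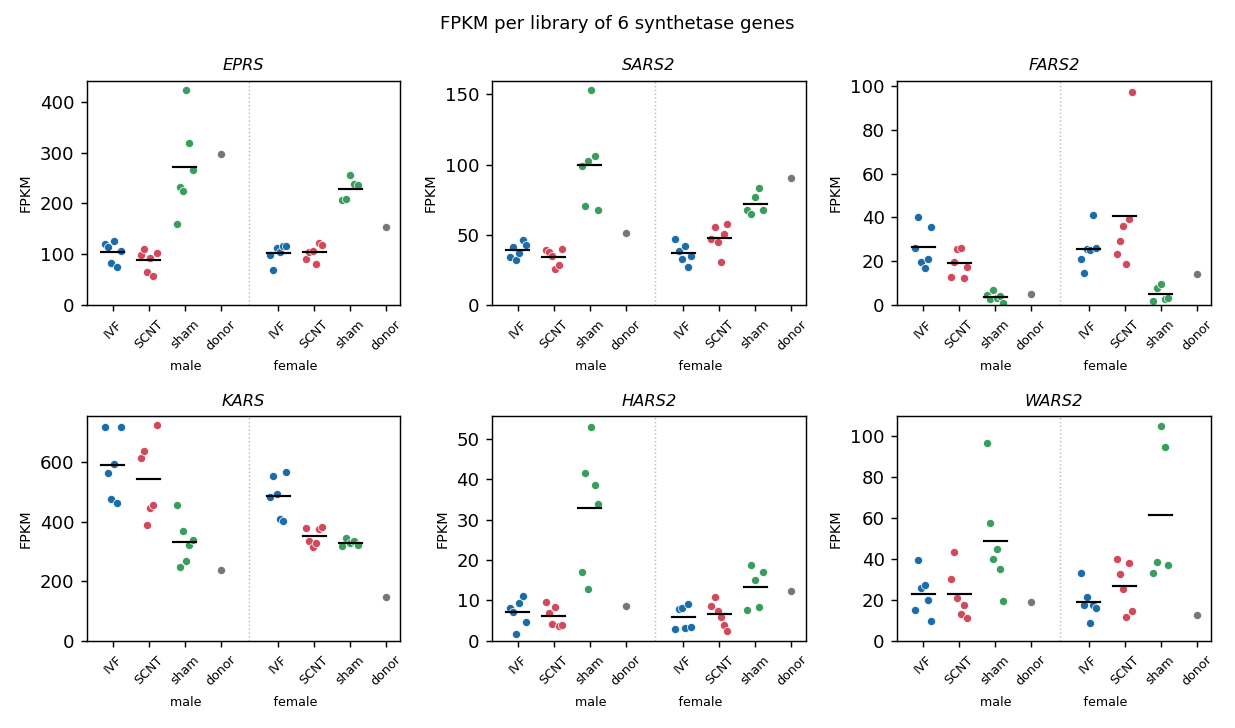
FPKM of EPRS, SARS2, FARS2, KARS, HARS2 and WARS2 in every library, by group, with a line at each group mean and the donor libraries in grey. Sham NT-BLs of both sexes lie above IVF-BLs for EPRS and SARS2 and below them for FARS2 and KARS.

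Male sham replicate 2, the male sham library without the small mapped share, held 232 FPKM of EPRS, 70.2 of SARS2, 41.6 of HARS2, 2.95 of FARS2 and 248 of KARS. The groups did not overlap for these members, so this library could only lie outside the IVF range. Its PARS2 level, 14.2 FPKM, lay inside the male IVF range of 4.44 to 16.6. The part of the mapped share in these differences was not tested. Without overlap between the groups, 6 members were higher and 3 lower in male sham NT-BLs, against 3.35% and 3.27% of all genes. In females 5 were higher and 4 lower, against 5.06% and 3.96%. YARS2 was one of the 5 in females, at 16.9 FPKM or more in every sham NT-BL and at most 15.3 in IVF-BLs, without passing the test.

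Few of these genes were called between SCNT-BLs and IVF-BLs, the comparison of the cloned with the fertilized embryo. In males 3 of 36 members (8.33%) passed, all cytosolic and all lower in SCNT-BLs, where 6.98% of 14906 genes passed in either direction and 3.64% were lower. QARS ran from 173 to 267 FPKM (median 240) in male IVF-BLs and, among male SCNT-BLs, from 84.9 to 175 (median 121) (-0.89 ± 0.19, adjusted p = 0.0120). It was the most secure of the 3 and kept its call under every alternative and without each library. CARS ran from 40.0 to 95.8 FPKM (median 54.2) against 12.3 to 47.7 (median 24.5; -1.19 ± 0.31, adjusted p = 0.0307). WARS ran from 62.9 to 97.3 (median 83.1) against 38.9 to 68.2 (median 50.4; -0.64 ± 0.17, adjusted p = 0.0310). In each of the 3 the highest SCNT-BL reached into the IVF range. CARS and WARS were lost without 6 and 8 of the 12 libraries in turn (adjusted p up to 0.0699 and 0.0691). The count was 1 without male IVF replicate 1 or 6 or without male SCNT replicate 1, 4 or 5, and 5 without male SCNT replicate 2.

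In females no member of 36 passed (limma), where 0.321% of 15256 genes did, and 4 were lower and 0 higher at an unadjusted p under 0.05, where 5.98% of all genes were lower. KARS was the 1 member whose groups did not overlap, named after its values were seen: 313 to 382 FPKM (median 355) in female SCNT-BLs and 401 to 566 (median 487) in female IVF-BLs (-0.45 ± 0.19, adjusted p = 0.386). Of all genes, 0.531% were lower in this way. In males KARS was 390 to 725 FPKM (median 536) in SCNT-BLs, which overlapped the IVF range of 464 to 717.

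The difference between the sexes in the SCNT effect passed for 2 members, CARS (1.56 higher in females on the log2 scale, adjusted p = 0.0485) and QARS (1.05 higher, adjusted p = 0.0421), where 1.91% of all genes passed and 1.06% were higher. In females CARS ran from 38.8 to 118 FPKM (median 62.7) in SCNT-BLs against a median of 46.6 in IVF-BLs. QARS ran from 150 to 265 (median 184) in female SCNT-BLs against 141 to 201 (median 182). Both of these calls were lost after rescaling (limma adjusted p = 0.0619 and 0.0514), after median centring, and without female SCNT replicates 5 and 6. Those libraries had 12106 and 12070 rows over 0.1 FPKM, against 13337 to 14030 in the other female SCNT-BLs. The sexes were on separate flow cells, so a difference of effects is the only comparison of sexes made here. Male SCNT-BLs came from male and female SCNT-BLs from female donor fibroblasts. In the SCNT effect, sex and donor cells thus cannot be told apart.

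**Figure D4:**
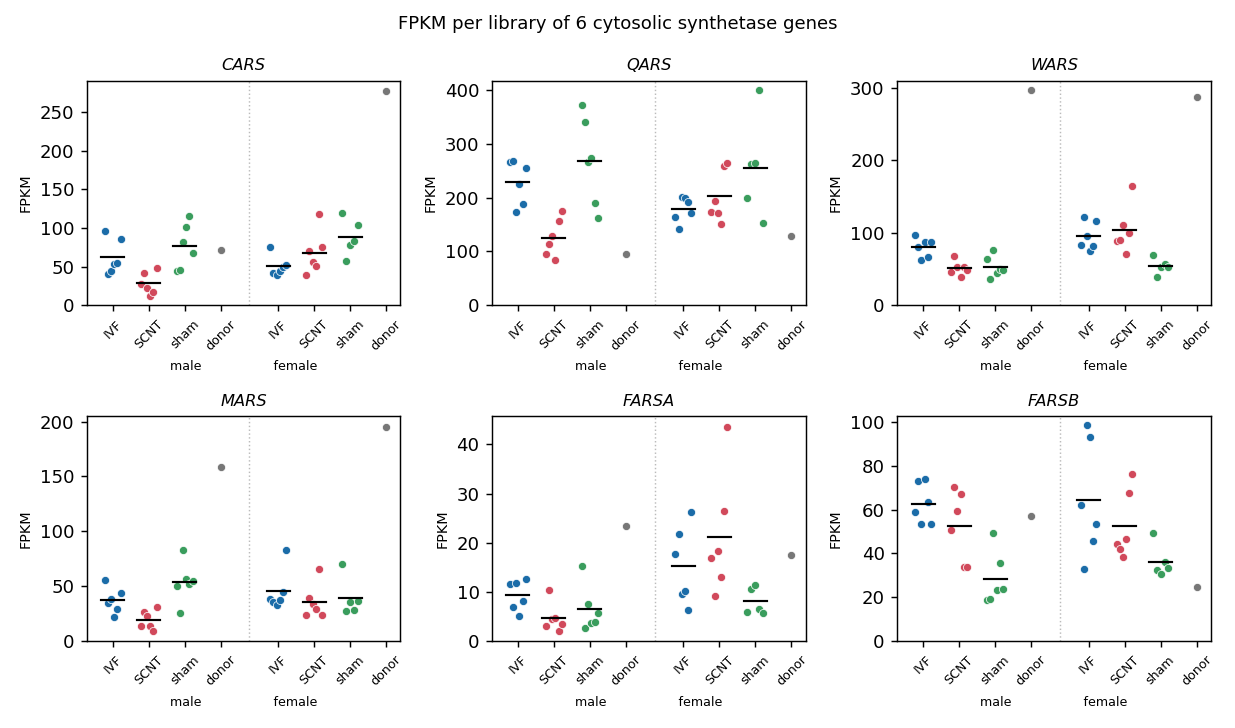
FPKM of CARS, QARS, WARS, MARS, FARSA and FARSB in every library, by group, with a line at each group mean. Male SCNT-BLs have lower means than male IVF-BLs for CARS, QARS and WARS (28.1 against 62.3, 125 against 229 and 51.1 against 79.9 FPKM), and female SCNT-BLs do not.

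SCNT-BLs were also set against sham NT-BLs, which the study made to mimic the manipulation of nuclear transfer. The handling was matched only in part. Sham NT-BLs were fertilized zygotes that kept both pronuclei, while SCNT-BLs were enucleated oocytes fused with a donor cell. This comparison shares the sham NT-BLs with the one above, so the genes below partly repeat it. In males 13 of 36 members (36.1%) passed, 3 higher and 10 lower in SCNT-BLs, against 11.8% of 14783 genes (5.67% higher, 6.13% lower). In females 6 (16.7%) passed, 3 higher and 3 lower, against 11.3% of 15116 genes (5.21% higher, 6.07% lower). Median centring gave 1 higher and 10 lower in males and 1 higher and 6 lower in females, and rescaling 3 and 9 in males and 3 and 2 in females. Without male SCNT replicate 4, or without male sham replicate 4, the male count was 8.

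FARS2 and EPRS passed in both sexes. FARS2 stood higher in SCNT-BLs by 2.11 ± 0.34 in males (12.6 to 25.9 FPKM, median 18.7; adjusted p = 0.000845) and by 2.79 ± 0.43 in females (19.0 to 97.4, median 32.6; adjusted p = 0.00102). EPRS was lower by -1.58 ± 0.25 in males (adjusted p = 0.000602) and -1.14 ± 0.19 in females (adjusted p = 0.00163). Both genes left no overlap between the groups and held under every alternative. In males HARS2 (-2.18 ± 0.36, adjusted p = 0.000927), SARS2 (-1.48 ± 0.22, adjusted p = 0.000482) and PARS2 (-1.46 ± 0.33, adjusted p = 0.00769) were lower in SCNT-BLs, each without overlap. QARS (-1.07 ± 0.25, adjusted p = 0.00897) and CARS (-1.46 ± 0.33, adjusted p = 0.00867) were lower than in sham NT-BLs as well as lower than in IVF-BLs.

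The methionine enzyme MARS, a member of the complex, was called in this comparison and in no other. It ran from 8.95 to 30.3 FPKM (median 17.9) in male SCNT-BLs, from 25.3 to 83.1 (median 52.9) in male sham NT-BLs and from 21.2 to 55.0 (median 36.6) in male IVF-BLs (-1.47 ± 0.31 against sham, adjusted p = 0.00563). Against male IVF-BLs the change of -0.97 ± 0.29 narrowly missed the threshold (adjusted p = 0.0552). HARS, SARS and TARS were lower (changes of -0.87, -0.84 and -0.84) and FARSB and KARS higher (0.90 and 0.70) in male SCNT-BLs, with adjusted p-values from 0.0263 to 0.0480. Each of these 5 was lost without at least 6 of the 12 libraries in turn. TARS was also lost after rescaling (adjusted p = 0.0580).

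In females LARS was lower (-0.99 ± 0.27, adjusted p = 0.0266) and WARS higher (0.91 ± 0.24, adjusted p = 0.0215), both without overlap. LARS lost its call after rescaling (adjusted p = 0.0863), with a replicate block (0.111) and without 3 of the 11 libraries in turn. WARS lost its call with median centring (adjusted p = 0.0656), with a replicate block (0.0735) and without 2 of the 11. FARSA, from 9.01 to 43.6 FPKM (median 17.6) in SCNT-BLs against 5.78, 10.5, 11.4, 6.44 and 5.71, was higher by 1.19 ± 0.36 (adjusted p = 0.0472) and lost its call without 9 of 11 libraries. Of the members named for SCNT against sham in females, EPRS and FARS2 held without each library. Leaving out female SCNT replicates 5 and 6 gave 9 calls, 3 higher and 6 lower. Without overlap between the groups, 2 members were higher in female SCNT-BLs (FARS2, WARS) and 8 lower, where 4.08% and 4.41% of all genes were. Of these 8, EPRS and LARS passed the test and AARS, IARS, RARS, SARS, LARS2 and SARS2 did not (adjusted p from 0.0519 to 0.133).

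The remaining 14 tested members passed in no comparison: AARS, DARS, GARS, IARS, NARS, RARS and VARS among the cytosolic enzymes, and AARS2, EARS2, LARS2, MARS2, NARS2, RARS2 and TARS2 among the mitochondrial ones. Group means of NARS, for example, ran from 152 to 217 FPKM over the 6 blastocyst groups, and those of RARS2 from 14.7 to 22.0. Others ranged more widely, with means of 15.8 to 45.3 FPKM for DARS and 3.56 to 11.0 for LARS2. A p that misses the threshold does not show equal levels at this number of embryos.

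Divided by the known make-up of the complex, 8 of the tested cytosolic members belong to it and 12 do not. In male sham NT-BLs against IVF-BLs 2 of the 8 were higher (EPRS, LARS) and 1 lower (KARS), and 4 of the 12 were higher (YARS, TARS, SARS, HARS) and 1 lower (FARSB), where 6.13% of all genes were higher and 5.96% lower. In females 2 of the 8 were higher (EPRS, LARS), and of the 12, CARS was higher and WARS lower, where 7.03% of all genes were higher and 6.47% lower. The median change was 0.52 and 0.49 in males, and 0.14 and 0.27 in females, for members and non-members.

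The lists that follow are short, and in sham NT-BLs against IVF-BLs 12.1% of all genes passed in males and 13.5% in females. Of the 3 scaffold genes, AIMP1 fell in sham NT-BLs of both sexes. It ran from 8.87 to 31.4 FPKM (median 25.4) in male IVF-BLs against 1.55 to 10.9 (median 5.12) in male sham NT-BLs (-1.96 ± 0.40, adjusted p = 0.00430). In females it was 21 to 36.3 (median 25.0) against 1.0 to 14.5 (median 6.92; -2.15 ± 0.42, adjusted p = 0.00350). AIMP2 rose in males, from a median of 33.9 to 79.6 FPKM (1.16 ± 0.31, adjusted p = 0.0226), and was at 51.9 and 70.0 in female IVF-BLs and sham NT-BLs without passing. AIMP1 also differed between the sexes in the SCNT effect (-1.34 ± 0.33, adjusted p = 0.0328), with means of 29.4 FPKM in male and 14.1 in female SCNT-BLs against 22.8 and 27.0 in IVF-BLs.

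Of the 4 genes of the elongation factor complex that receives charged tRNA, EEF1A1 fell in sham NT-BLs, from means of 419 to 151 FPKM in males (-1.53 ± 0.25, adjusted p = 0.000842) and 578 to 170 in females (-1.85 ± 0.27, adjusted p = 0.000389). EEF1G fell in male SCNT-BLs, from 290 to 131 FPKM (-1.15 ± 0.17, adjusted p = 0.000892). Of 7 genes of tRNA editing and release, DTD1, which clears D-amino acids from tRNA, was the 1 that rose in sham NT-BLs, by 0.92 ± 0.23 in males (adjusted p = 0.0133) and 1.04 ± 0.20 in females (adjusted p = 0.00309). Of 10 partners in mitochondrial translation, MTIF2, an initiation factor, rose in male sham NT-BLs (2.41 to 7.30 FPKM, adjusted p = 0.0453). GATC, a subunit of the enzyme that converts glutamate on mitochondrial tRNA to glutamine, rose in female ones (8.69 to 39.0 FPKM, adjusted p = 0.00308). In SCNT-BLs against IVF-BLs, 0 of these 10 and 0 of the 7 passed in either sex (limma), where 6.98% of all genes passed in males and 0.321% in females. The selenocysteine and threonine-like genes outside the symbol rule (3 listed, 2 or 3 tested) did not pass in any comparison.

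Of 17 listed genes of the amino acid response, 16 were tested. In sham NT-BLs against IVF-BLs 2 of the 16 passed in males, near the 12.1% of all genes, and 4 of the 16 in females, where 13.5% of all genes did. In male sham NT-BLs DDIT3, a stress-induced transcription factor, and PHGDH, which opens serine synthesis, rose (2.15 ± 0.47 and 1.27 ± 0.37, adjusted p = 0.00604 and 0.0367). In female ones DDIT3, PHGDH and the amino acid transporter subunit SLC3A2 rose (2.31 ± 0.38, 1.51 ± 0.35 and 1.89 ± 0.27, adjusted p = 0.000997, 0.00913 and 0.000389). ATF4 itself fell in them, from 233 to 135 FPKM (-0.79 ± 0.23, adjusted p = 0.0312). The sham effect on SLC3A2 differed between the sexes (2.04 higher in females, adjusted p = 0.00449). The median change of the list was -0.21 in males and 0.20 in females. In male SCNT-BLs against IVF-BLs, SLC7A5, an amino acid transporter, fell (29.3 to 14.6 FPKM, adjusted p = 0.0392) and no other listed gene passed. Of 3 MYC family genes, 0 passed.

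Single embryos could lead their group across many members. Of the 20 cytosolic members, female IVF replicate 6 and female sham replicate 1 each held the highest value of their group for 10, and the lowest for 0 and 3. Male SCNT replicate 6 led for 9, male SCNT replicate 2 and male IVF replicate 1 for 8, and male sham replicate 4 and female SCNT replicate 6 for 7. Of the 16 mitochondrial members, male sham replicate 4 held the highest value for 8 and female sham replicate 2 for 7.

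Donor fibroblasts had a higher cytosolic sum than any blastocyst, and a mitochondrial sum within the range of the SCNT-BLs and below every sham NT-BL of the same sex. With 1 library per sex the difference has no replicate check. The cytosolic sum was 3414 FPKM in male and 3118 in female donor cells, and the mitochondrial sum 247 and 251. Of the 21 cytosolic rows, 13 in males and 12 in females were more than 2-fold higher than the SCNT-BL mean on the log2(FPKM + 1) scale, where 27.6% and 28.6% of all genes were, and 1 and 2 were more than 2-fold lower. Of the 16 mitochondrial rows, 3 and 2 were higher and 3 and 5 lower, against 20.9% and 21.9% of all genes lower. In either direction 48.4% and 50.5% of all genes passed 2-fold, so the count over all members (20 and 21 of 37) was near the background.

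MARS stood at 159 and 196 FPKM in male and female donor cells against means of 19.1 and 35.6 in SCNT-BLs. The glycine enzyme GARS stood at 186 and 227 against 35.7 and 32.3. SARS stood at 437 and 356 against 81.9 and 64.4, and the valine enzyme VARS at 100 and 61.6 against 16.4 and 16.1. KARS was the reverse, at 238 and 147 FPKM against 545 and 352, and made up only 6.96% and 4.72% of the cytosolic sum of the donor cells. Of the mitochondrial enzymes, RARS2 (4.31 and 3.23 against 14.7 and 17.2) and FARS2 (4.91 and 14.4 against 19.0 and 40.8) were lower in both donor libraries, below the range of the SCNT-BLs. The order of abundance thus differed: NARS and SARS led in male donor cells, and SARS and AARS in female ones, with KARS below them.

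**Figure D5:**
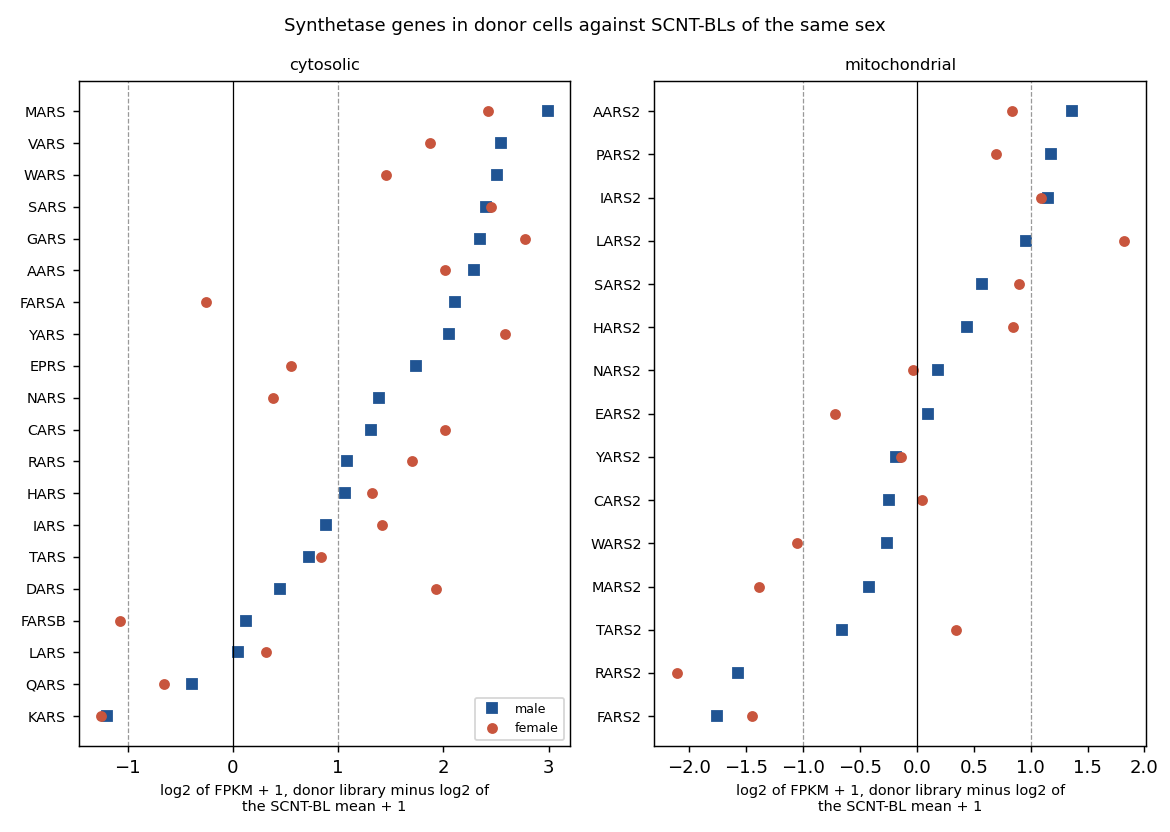
Log2(FPKM + 1) of the synthetase genes, leaving out 1 mitochondrial one, in the donor library minus the log2 of the mean + 1 of the 6 SCNT-BLs of the same sex, males as squares and females as circles. Dashed lines mark a 2-fold difference. Most cytosolic genes lie to the right of 0, with KARS at -1.19 and -1.25, and the mitochondrial genes lie on both sides.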

How the data were processed

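Poly-A RNA of 35 single blastocysts and 2 donor cell samples was pico-profiled, and the libraries were run on a HiSeq instrument, with the sexes on separate flow cells. The authors deposited 1 table of FPKM values per gene, made with Trim Galore, TopHat, Cufflinks and Cuffdiff on UMD3.1 (per the labels and the study's methods). Versions were not given in the sources used here. The table holds no counts, so the number of reads behind each value is unknown and no counting interval is given. The study lists sequencing depth and mapping rates by library, and these did not enter the tests. All columns matched a sample (0 not used), and groups came from the sample labels. The study tested with Cuffdiff, which needs the alignments. Here log2(FPKM + 1) was compared with limma 3.58.1 (lmFit, eBayes with trend) in R 4.3.3, within each sex, over all genes whose mean in the libraries of the comparison exceeded 0.1 FPKM. P-values were adjusted by Benjamini-Hochberg over all those genes, with a threshold of 0.05. Differences between the sexes were interaction terms over 4 groups. Fold changes are on the log2(FPKM + 1) scale, which understates low genes. Class sums and donor cells, with 1 library each, have no test. The scripts were tested on simulated data.

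The members, the lists and the tests were chosen with earlier results of these data known. By rule, members past the threshold in any comparison were given with their values, and the 3 highest and 3 lowest of each class by their level in IVF-BLs. Other members named were chosen after their values were seen. Alternatives were a pseudocount of 0.1, no filter, a filter at 1 FPKM, median centring, 1 fit over all 6 groups, no trend, a replicate block and leaving out each library. Rescaling to equal sums and leaving out female SCNT replicates 5 and 6 were added after seeing the data. All 36 symbols matched a RefSeq gene list of another build, used only for names and neighbours. The values of 1 mitochondrial member are not reported here, and it stays in the counts and sums.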

Additional observations from a re-analysis of the deposited data

Results flagged for a closer look

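The 22 members called in at least 1 comparison were examined in the 6 blastocyst groups, and the other members were not. Of these 132 sets, 10 had a single embryo whose gap to the next was large for the range of its group (Dixon's test at 95%, on untransformed FPKM). Chance alone gives about 1 in 20 where values are normally distributed, which was not checked for these FPKM. MARS was among them in each of the female groups, at 83.2 FPKM in female IVF replicate 6 (others 32.9 to 44.0), 65.1 in female SCNT replicate 5 (others 23.1 to 38.5) and 69.9 in female sham replicate 1 (others 26.7 to 35.7). Female SCNT replicate 6 stood apart in FARS2, at 97.4 FPKM (others 19.0 to 39.4), and in HARS, at 33.8 (others 9.10 to 15.8). CARS was 75.0 FPKM in female IVF replicate 1 (others 39.8 to 52.2), and TARS was low, at 68.1, in female IVF replicate 2 (others 160 to 202). In males, FARSA was 10.4 FPKM in SCNT replicate 2 (others 1.91 to 4.56), PARS2 12.2 in SCNT replicate 4 (others 4.67 to 7.23) and YARS2 21.8 in IVF replicate 4 (others 10.4 to 14.3).

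The SCNT effect differed between the sexes for CARS, by 1.56 on the log2 scale, and for QARS, by 1.05, both higher in females. CARS missed the threshold without 18 and QARS without 16 of the 24 libraries in turn. Sex cannot be told apart from flow cell in these samples, nor from the donor cells in the SCNT effect.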

How the results depend on the processing

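Of 46 calls of single members, 24 were kept without each library in turn, 26 under every other alternative and 22 under both, and none changed direction. Leaving out 1 library gave 1 to 5 calls for SCNT against IVF in males and 0 to 0 in females, 8 to 13 and 5 to 9 for sham against IVF, 8 to 12 and 4 to 9 for SCNT against sham, 0 to 2 for the difference between the sexes in the SCNT effect and 0 to 0 in the sham effect. Without the trend, SCNT against IVF in males gave 1 call. SCNT against sham in females gave 10 with the filter at 1 FPKM, 12 in 1 fit over all groups and 3 with the replicate block. The difference in the SCNT effect (2 calls) gave 1 without a filter, 1 in 1 fit over all groups, and 0 with median centring, without the trend, after rescaling and without female SCNT replicates 5 and 6. The causes were not tested.

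The log2 ratio of summed cytosolic FPKM between female sham NT-BLs and IVF-BLs went from 0.15 to -0.10 after rescaling. That between female SCNT-BLs and sham NT-BLs went from -0.28 to -0.11 with the median over members and -0.10 after rescaling. For the mitochondrial sums, sham against IVF gave 0.78 in males (0.56 with the median over members) and 0.67 in females (0.22 with the median, 0.41 after rescaling), and SCNT against sham in males gave -0.72 (-0.48 with the median). The numbers of the replicates are shared only as numbers: same-numbered samples correlated at -0.24 to 0.076, and at most 1 sample of a comparison correlated best with its own number. With the replicate block, the counts were 2 and 0 for SCNT against IVF in males and females, 12 and 6 for sham against IVF, 11 and 3 for SCNT against sham, and 2 and 0 for the differences between the sexes. The number of reads behind each FPKM value is unknown, so low members such as EARS2 and NARS2 have no detection limit here.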
